A study of Homo sapiens with 12 samples.

Results

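METTL1 and WDR4 contact sites that carried no cluster of an IGF2BP protein were examined in HepG2, a human liver cancer cell line of wildtype genotype. PAR-CLIP maps where a protein touches RNA. Cells are fed 4-thiouridine, ultraviolet light crosslinks the labelled uridines to the protein, RNase T1 trims the RNA after G, and the precipitated fragments are sequenced and grouped into clusters. The study made 12 such libraries, 2 replicates each for METTL1, WDR4, IGF2BP1, IGF2BP2 and IGF2BP3 and 2 further IGF2BP3 replicates labelled bio2. Each replicate came from 4-thiouridine-fed wildtype cells of this line precipitated with an antibody, and no library of a control precipitation was used here. Clusters on chromosomes 1 to 22, X and Y that overlapped by 1 nt or more on the same strand were merged into 43870 sites. The sites described here were chosen by cluster presence, with clusters from at least 2 of the 4 METTL1 and WDR4 libraries and from none of the 8 IGF2BP libraries. They numbered 1409, which is 3.21% of all merged sites, and are called writer-only sites.

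METTL1 is the catalytic subunit and WDR4 the RNA-binding partner of the methyltransferase that places m7G in the variable loop of a group of tRNAs, and the study also examined this complex as the writer of internal m7G in mRNA. In tRNA the complex is known for a short target word, AAGGT or GAGGT in DNA letters. The IGF2BP family binds RNA through KH domains and acts mainly on the 3' UTR of mature mRNA, and the study treated them as readers of m7G. For comparison, 2652 sites with at least 2 METTL1 and WDR4 libraries and any IGF2BP library are called shared sites, and 9686 sites with at least 2 IGF2BP libraries and no METTL1 or WDR4 cluster are called reader-only sites.

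Cluster presence chose the members, so the counts in this paragraph are a description. Of the 4061 sites with at least 2 METTL1 and WDR4 libraries, 34.7% had no IGF2BP cluster. Exactly 2 libraries marked 1144 of the writer-only sites, 3 libraries marked 218, and all 4 marked 47. Clusters of both proteins were present at 708 sites, of WDR4 alone at 540 and of METTL1 alone at 161. WDR4 replicate 1 held 999 of the sites, WDR4 replicate 2 held 988, METTL1 replicate 2 held 659 and METTL1 replicate 1 held 484. Leaving out a WDR4 replicate left 646 sites (without replicate 1) or 649 (without replicate 2). Just outside the rule lay 17413 sites with 1 METTL1 or WDR4 library and no IGF2BP cluster, of which 55.7% were intronic, and 347 sites with at least 2 METTL1 and WDR4 libraries and exactly 1 IGF2BP library, of which 40.6% were intronic. Just inside, 48.8% of the sites with exactly 2 libraries were intronic.

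The libraries held between 4581 and 15701 clusters, 96139 in all on the chromosomes used. The files give an interval and no read count, so the depth behind a site is unknown and presence is the measurement. Short clusters of up to 24 nt made up 12.5% to 21.8% of the clusters in the METTL1 and WDR4 libraries and 3.76% to 11.4% in the IGF2BP libraries. A G stood just before the start in 74.2% to 86.1% of the METTL1 and WDR4 clusters and in 88.7% to 94.9% of the IGF2BP clusters. Of 7 hepatocyte transcripts, 6 had an exonic cluster in at least 1 library and TTR in none, and none of 6 marker transcripts of blood, fibroblast and endothelial cells had any.

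Sequences show the kinds of RNA that made up the writer-only sites. All are printed 5' to 3' on the strand of the site, from hg38. The first set shows pyrimidine-rich intron sites, with the longest unbroken run of C and T in capitals. The FOXP4 site lies at chr6:41598516-41598593 (plus strand) and has a centre found at 1 place in the genome. The TCF7L2 site, at chr10:113117362-113117419 (plus strand), is a repeat whose central 20 nt occur 69356 times.
FOXP4: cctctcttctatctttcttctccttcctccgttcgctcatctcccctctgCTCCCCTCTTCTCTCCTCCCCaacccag
TCF7L2: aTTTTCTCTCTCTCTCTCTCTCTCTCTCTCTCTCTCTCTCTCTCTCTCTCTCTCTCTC

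The second set shows single-copy sites in exons of mRNAs, which were rich in G, with runs of at least 3 G in capitals. LMAN2 (coding sequence, chr5:177351601-177351629) and PLXNB1 (coding sequence, chr3:48419711-48419738) lie on the minus strand, as does ZBTB7A (3' UTR, chr19:4045758-4045784). EIF4G1 (3' UTR, chr3:184335160-184335189) lies on the plus strand.
LMAN2: atttggcgttGGGGctGGGGccggcggtg
PLXNB1: cccgaggcggacgagtggacGGGGGGtg
ZBTB7A: acaGGGGccGGGGttGGGGagactatg
EIF4G1: tgtgtcttGGGGtGGGGaGGGGcaccaacg

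The third set shows sites over nuclear tRNA genes, with bases inside the annotated gene in capitals and bases beyond its ends in lower case. A group of tRNAs are substrates of the complex. Of the genes shown, only TRA-CGC3-1 had AAGGT or GAGGT in the variable loop. TRE-TTC3-1 (site at chr1:16872583-16872625), TRA-CGC3-1 (chr2:156400823-156400846), TRL-AAG2-1 (chr5:181187745-181187766) and TRD-GTC2-6 (chr6:27479719-27479760) lie on the plus strand, and TRT-TGT6-1 (chr5:181191744-181191765) on the minus strand.
TRE-TTC3-1: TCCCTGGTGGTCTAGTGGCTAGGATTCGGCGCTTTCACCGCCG
TRA-CGC3-1: CAATCCCCGGCATCTCCAaatcag
TRL-AAG2-1: TCTCTTCGGGGGCGTGGGTTCG
TRD-GTC2-6: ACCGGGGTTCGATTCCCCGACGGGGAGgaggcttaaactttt
TRT-TGT6-1: aacagccGGCTCCATAGCTCAG

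Writer-only sites lay mostly in introns and between genes, whereas the 3' UTR was the most frequent class at shared and reader-only sites. Each site was assigned by its midpoint, and a library's value is the share of its own sites in a set. Introns held 48.0% ± 1.08 (SD, n = 4 libraries) of the writer-only sites, with values of 47.5% and 48.7% in the METTL1 replicates and 46.7% and 49.1% in the WDR4 replicates. At shared sites of the same 4 libraries the intron share was 24.7% ± 1.44, and at reader-only sites of the 8 IGF2BP libraries it was 20.3% ± 4.40. The 3' UTR share was 8.71% ± 1.86 at writer-only sites, 43.1% ± 1.02 at shared sites and 44.3% ± 3.49 at reader-only sites. The intergenic share was 31.0% ± 6.30, 13.2% ± 0.814 and 12.9% ± 0.689 in the same order. For none of these 3 regions did the writer-only libraries overlap the libraries of either other set. With each site counted once, introns held 48.4% of writer-only and 38.5% of all merged sites. Intergenic sequence held 32.1% and 19.0%, and 3' UTRs 8.52% and 25.7%. Sites with 1 METTL1 or WDR4 library and no IGF2BP cluster had a similar profile. Of these, 55.7% were intronic, 23.4% intergenic and 9.10% in 3' UTRs.

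**Figure D1:**
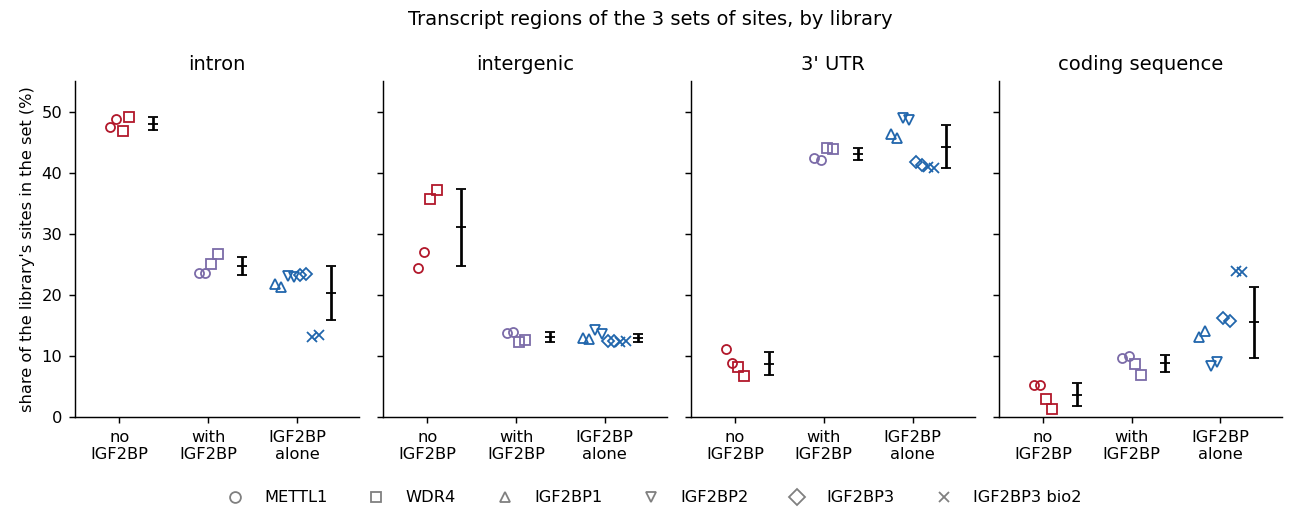
Share of each library's sites (%) that lay in introns, between genes, in 3' UTRs and in coding sequence, for METTL1 and WDR4 sites without IGF2BP, METTL1 and WDR4 sites with IGF2BP, and IGF2BP sites without METTL1 or WDR4. Each symbol is a library, and the black mark beside each set is the mean with its SD (n = 4, 4 and 8). The 4 libraries at sites without IGF2BP sit between 46.7% and 49.1% in introns and between 6.68% and 11.2% in 3' UTRs.

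Against reader-only sites, the intron share was higher by 27.8 percentage points, the intergenic share higher by 18.1 and the 3' UTR share lower (difference -35.6), each with p = 0.00202 and adjusted p = 0.00283 in a two-sided exact permutation test over libraries (n = 4 and 8), adjusted over 7 measures. This p is the smallest that the 495 assignments of the libraries allow. The sets were defined by the same protein labels that the test permutes, and were not redefined for each assignment. Every site lies in at least 2 libraries of its set, so libraries of a set agree by construction. A small p was therefore likely from the start, here and in every comparison with reader-only sites below, and no conclusion is drawn from it. Against shared sites, introns were higher by 23.3 points and intergenic sequence by 17.9 in 4 of 4 libraries, and the 3' UTR was lower in 4 of 4 (difference -34.4). The intergenic difference depended on the short sites: without sites up to 24 nt, an alternative added after the values were seen, it was 8.47 points from shared and 8.22 from reader-only sites. The exact sign-flip test of those paired differences gave adjusted p = 0.175 for each, at the smallest raw p that n = 4 libraries allow, so it could not reach 0.05. The libraries share sites with each other, so these p-values overstate the evidence, and with the protein as the unit (n = 2 and 3) no exact test could go below p = 0.1.

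Coding sequence held 48 writer-only sites (3.41%), 5' UTRs 36 (2.56%) and exons without coding annotation 71 (5.04%). Of those 71, 48 lay in genes of a noncoding type and 23 in noncoding transcripts of protein-coding genes. The share in exons of noncoding genes was 3.91% ± 1.42 at writer-only sites (n = 4 libraries), 6.42% ± 0.238 at shared sites and 5.05% ± 1.63 at reader-only sites. Neither difference passed the exact test (adjusted p = 0.175 and adjusted p = 0.261). The 5' UTR share was 2.88% ± 1.33 at writer-only sites, 3.24% ± 0.528 at shared sites and 0.900% ± 0.262 at reader-only sites, given without a test. Of the 452 intergenic sites, 184 lay opposite an annotated gene.

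The median distance to the next downstream exon of the host gene was 6513 nt for intronic writer-only sites, and 19 of 682 sites (2.79%) lay within 100 nt of it. At intronic shared sites the median was 5997 nt and 2.48% lay within 100 nt. Among intronic sites over 24 nt with at least 80% C and T, 6 of 217 lay within 100 nt of that exon, where the polypyrimidine tract of a splice site is found.

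Width and base content divided the writer-only sites into 3 kinds. The limits of these kinds were set after the values were seen, so they are a description without a test. Sites of up to 24 nt numbered 446 (31.7%, Wilson 95% interval 29.3% to 34.1%), sites over 24 nt with at least 80% C and T numbered 356 (25.3%, 23.1% to 27.6%), and 607 remained (43.1%). The intervals cover counting error only. At shared sites the short share was 3.68% ± 0.484 (SD, n = 4 libraries) and the pyrimidine-rich share 16.9% ± 1.87, while at reader-only sites they were 5.43% ± 3.39 and 7.24% ± 1.39 (n = 8 libraries). Near the limits, 148 sites were 20 to 24 nt wide and 84 were 25 to 29 nt wide, and of the wider sites 56 had 80% to under 85% C and T and 60 had 75% to under 80%. A site merged from more libraries is wider by construction, so widths between sets are not comparable in full.

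**Figure D2:**
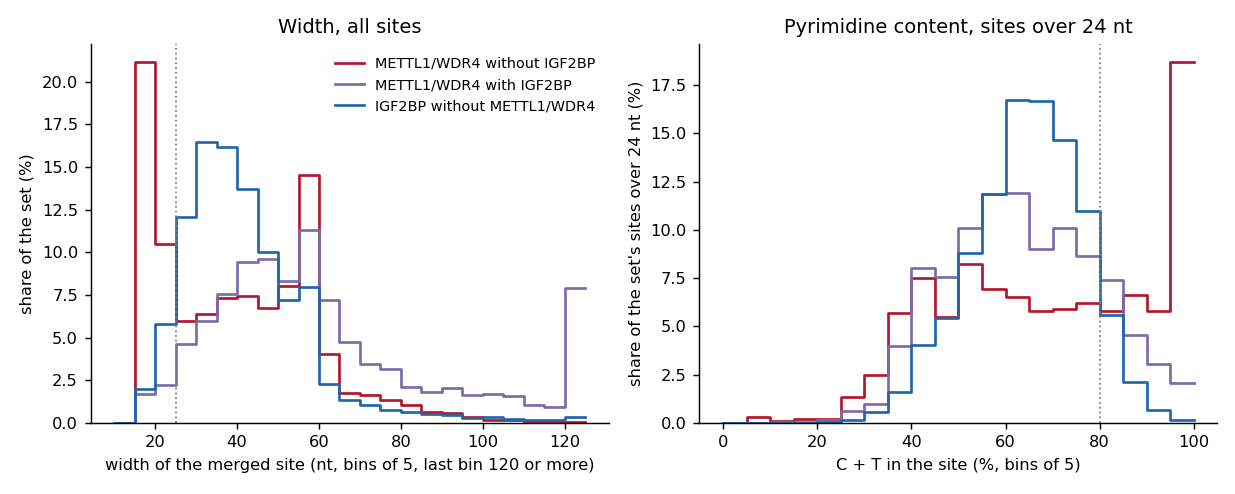
Left, width of the merged site (nt) against the share of the set (%). Right, C and T content (%) of sites over 24 nt against the share of those sites (%). The dotted lines mark the limits of 24 nt and 80%. Among METTL1 and WDR4 sites without IGF2BP, 446 of 1409 were up to 24 nt wide and 180 of the wider ones had at least 95% C and T.

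The kinds were not spread evenly over the libraries. Sites of the 2 WDR4 replicates alone were short in 288 of 540 cases and pyrimidine-rich in 141. Sites of the 2 METTL1 replicates alone were short in 26 of 161 cases, pyrimidine-rich in 12 and of the remaining kind in 123. Short sites made up 38.04% and 38.97% of the writer-only sites in the WDR4 replicates, and 20.5% and 17.5% in the METTL1 replicates. Of the short sites 64.6% were marked by WDR4 alone, and of the remaining sites 61.4% were marked by both proteins.

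**Figure D3:**
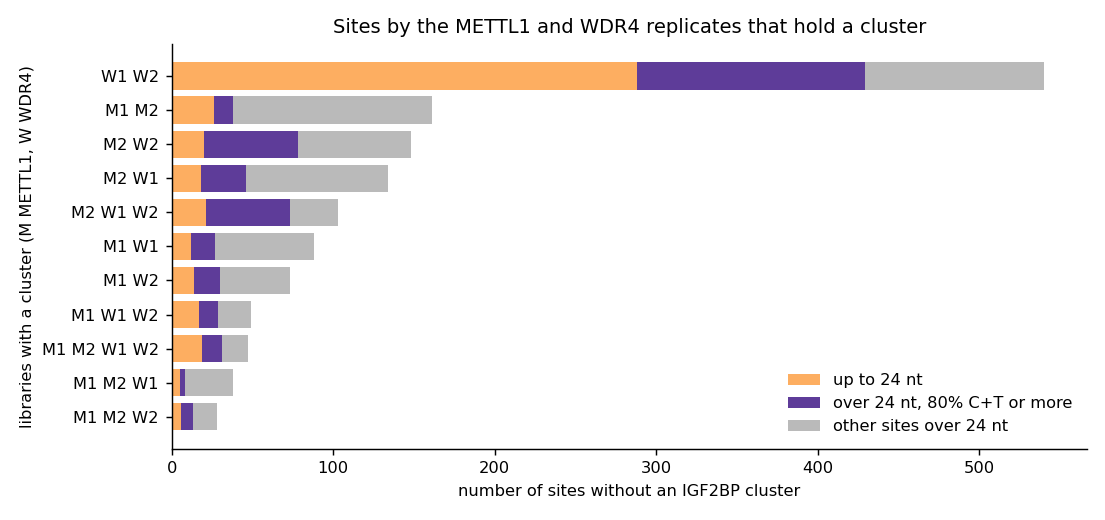
Number of writer-only sites for each combination of METTL1 (M) and WDR4 (W) replicates that held a cluster, divided by kind: up to 24 nt, over 24 nt with at least 80% C and T, and other sites over 24 nt. The bar of both WDR4 replicates alone holds 540 sites, of which 288 are short, and the bar of both METTL1 replicates alone holds 161, of which 26 are short.

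Pyrimidine-rich sites were made of C and T alone over long stretches. Their mean composition was 46.5% C, 46.3% T, 4.95% A and 2.22% G, and the longest run of C and T had a median of 35 nt, against 19 nt at the 435 pyrimidine-rich shared sites and 13 nt at the 758 pyrimidine-rich reader-only sites. Introns held 217 of the 356 sites (61.0%) and 3' UTRs 28 (7.87%). At pyrimidine-rich shared sites the 3' UTR held 48.3% and introns 18.9%. The word CTCTCTCT, searched on the strand of the site, was present in 182 of the 356 sites (51.1%), in 194 of all 1409 writer-only sites (13.8%), and in 3.17% of all merged sites. It was present in 22.3% of the pyrimidine-rich shared sites and 6.46% of the pyrimidine-rich reader-only sites. The opposite composition was rare, since only 6 writer-only sites over 24 nt had at least 80% A and G.

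Many of these sequences were repeated in the genome. The central 20 nt were found at 1 place in 34.6% of the pyrimidine-rich writer-only sites and at 100 or more places in 33.1%, and 64 of the 356 had 10000 or more places. Of the 356 sites 85 shared their central 20 nt with another member, and 35 members had the same centre. The mapper kept reads with up to 10 best places, so a member of such a group need not be the place of contact. The sites of CCDC200, which held 6 in its introns, were all pyrimidine-rich, and none of the 6 had a single-copy centre.

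Where the centre was single-copy, the place was unambiguous at this length. The FOXP4 site, in an intron of a forkhead transcription factor gene, was 78 nt wide with 88.5% C and T. It had clusters in both METTL1 replicates and WDR4 replicate 1, and an IGF2BP cluster lay 391 nt away. ERC1, which encodes a synaptic scaffold, held 3 pyrimidine-rich intron sites and ACSL3, an acyl-CoA synthetase, held 2, of which 1 in each gene had a single-copy centre.

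Short sites lay mainly between genes. Of the 446, 261 were intergenic (58.5%), 150 intronic (33.6%) and 13 in a 3' UTR (2.91%), with a median width of 19 nt. The 20 nt around the centre were single-copy in 91.3%. For a site under 20 nt these include genomic bases beside the site, so the share does not describe the site's own sequence alone. A G preceded 31.6% of them, T 24.7%, A 23.3% and C 20.4%, against a G before 69.7% of the pyrimidine-rich and 87.5% of the remaining writer-only sites. Among short sites of the other sets, a G preceded 59.8% (shared) and 71.6% (reader-only). Matches to tRNA, rRNA, mitochondrial and other small RNA references were found for 28 of the 446. The nearest IGF2BP cluster on the strand lay at a median of 176132 nt. Where these short reads came from was not tested.

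The remaining 607 sites had a G before the start in 87.5%. Introns held 315 of them (51.9%), intergenic sequence 109 (17.96%), 3' UTRs 79 (13.01%), noncoding exons 44 (7.25%), coding sequence 37 (6.10%) and 5' UTRs 23 (3.79%). Among shared sites of this kind 43.97% lay in 3' UTRs and 25.6% in introns. Over sites of this kind in both sets, an alternative added after the values were seen, the intron share was 29.9 points and the intergenic share 6.52 points above that of reader-only sites, and the 3' UTR difference was -30.5 points.

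Exons of 196 protein-coding genes held a writer-only site in coding sequence or a UTR. Of these genes 129 (65.8%) had an exonic site of at least 1 IGF2BP library elsewhere, 109 (55.6%) an exonic site of at least 2, and 61 (31.1%) an exonic shared site. Of the 481 protein-coding genes with an intronic writer-only site 270 (56.1%) had an exonic site of at least 1 IGF2BP library, and of all 20033 protein-coding genes, expressed in these cells or not, 25.4% did. Of all these genes 19.5% had an exonic site of at least 2 IGF2BP libraries, and 6.80% had a shared site anywhere in the gene. A 3' UTR writer-only site had its nearest IGF2BP cluster at a median of 752 nt, and 35 of 120 lay within 100 nt of it. Over all writer-only sites the median was 31723 nt, with 101 (7.17%) within 100 nt and 263 (18.7%) within 1000 nt.

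Single-copy mRNA exon sites of the remaining kind were rich in G. The 96 such writer-only sites had a mean of 33.5% G, 31.3% C, 20.7% T and 14.5% A. The 713 shared sites of this kind had 17.4% G and the 3581 reader-only sites 7.58% G, with 27.8% A. By library, mean G was 34.2% and 33.4% in the METTL1 replicates and 34.9% and 34.6% in the WDR4 replicates. It was 15.8% to 18.9% in the same libraries at shared sites and 5.32% to 10.6% in the IGF2BP libraries at reader-only sites, so the 3 ranges did not overlap. At least 40% G was found in 38 of the 96 sites (39.6%), in 8.70% of the shared and in 0.726% of the reader-only sites. This contrast was chosen after the values were seen and was not tested.

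**Figure D4:**
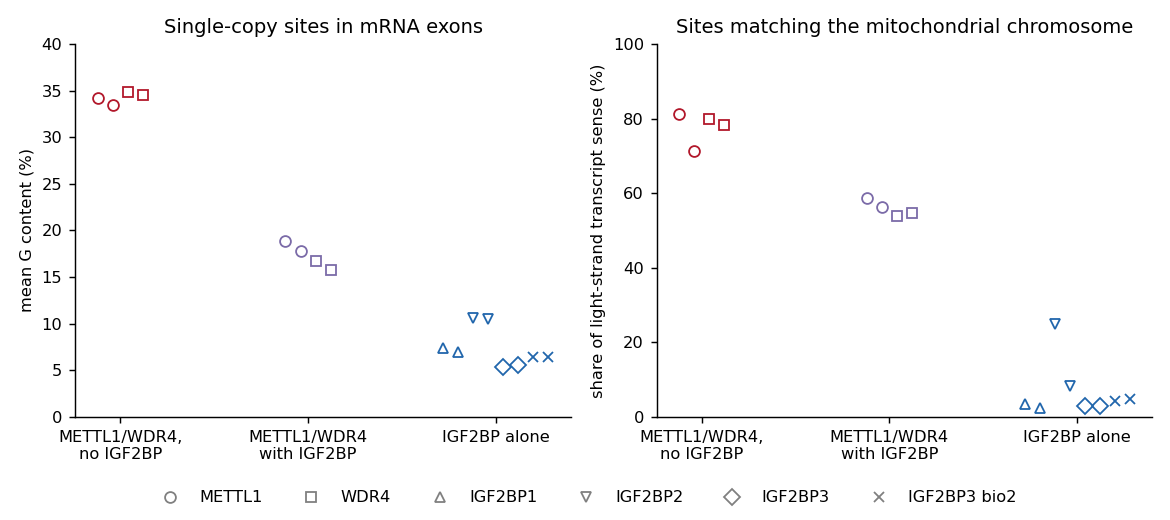
Left, mean G content (%) of single-copy sites in mRNA exons (coding sequence and UTRs, over 24 nt, under 80% C and T), for each library in the 3 sets. Right, share (%) of sites matching the mitochondrial chromosome that read in the sense of light-strand transcripts. Each symbol is a library. G content lies between 33.4% and 34.9% at METTL1 and WDR4 sites without IGF2BP, and the light-strand share between 71.4% and 81.3%.

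The G-rich sites included 2 found in all 4 libraries. In the 5' UTR of CDKN1B, which encodes the cyclin-dependent kinase inhibitor p27, the site at chr12:12717741-12717772 (plus strand) was 50% G, with clusters of 31 and 31 nt in the METTL1 replicates and 30 and 32 nt in the WDR4 replicates. In the 3' UTR of SRRM2, a splicing factor of nuclear speckles, the site at chr16:2771244-2771276 (plus strand) was 42.4% G, with clusters of 20 and 21 nt in the METTL1 replicates and 33 nt in both WDR4 replicates. The nearest IGF2BP clusters lay 3879 and 2049 nt away. LMAN2, a cargo receptor of the secretory pathway, held a coding site with 55.2% G and clusters of 24 and 29 nt for METTL1 and 23 nt for WDR4 replicate 1. There an IGF2BP cluster began 25 nt away. ZBTB7A, a transcriptional repressor, held a 3' UTR site with 51.9% G and clusters of 27 nt in both METTL1 replicates and WDR4 replicate 1, 31 nt from an IGF2BP cluster. FADS2, the delta-6 fatty acid desaturase, held a 3' UTR site with 59.0% G in METTL1 replicate 1 and both WDR4 replicates. The EIF4G1 3' UTR site, in the mRNA of the translation initiation scaffold, was 50% G and was marked by both WDR4 replicates.

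Base content over all kinds differed from reader-only sites. Mean G and C content was 51.5% ± 3.35 at writer-only sites (n = 4 libraries), 52.0% ± 1.35 at shared sites and 43.0% ± 2.26 at reader-only sites. The difference from reader-only sites was 8.46 points (adjusted p = 0.00283, exact permutation test), while that from shared sites was -0.50 points with 2 of 4 libraries higher (adjusted p = 0.75, exact sign-flip test). T content was 31.9% ± 2.58 at writer-only sites, 28.6% ± 0.864 at shared sites (higher in 4 of 4 libraries, adjusted p = 0.175, exact) and 29.8% ± 1.29 at reader-only sites (adjusted p = 0.0919, exact). The word AAGGT or GAGGT was present in 4.19% of writer-only sites, 6.86% of shared sites, 1.95% of reader-only sites and 4.32% of all merged sites. The words CATA, CATC and CATT, variants of the CAT core that IGF2BP proteins are known to bind, were present in 25.6% of writer-only, 47.9% of shared and 64.2% of reader-only sites, and in 43.4% of all merged sites. Wider sites hold more words, so these shares are a description.

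Repeated sequence was about as frequent at writer-only sites as over all merged sites. The central 20 nt were single-copy in 53.3% ± 5.09 of the writer-only sites (n = 4 libraries), 48.3% ± 1.58 of the shared sites and 71.2% ± 7.20 of the reader-only sites. The difference from reader-only sites was -17.9 points (adjusted p = 0.00283, exact permutation test). With the central 16 nt it turned to 8.53 points with writer-only sites higher (adjusted p = 0.00283, exact). Centres with 100 or more places made up 17.7% ± 1.77 of writer-only sites, 13.4% ± 0.764 of shared and 8.29% ± 6.59 of reader-only sites. With each site counted once, the centre was single-copy in 55.6% of writer-only and 56.8% of all merged sites. It had 100 or more places in 17.4% of writer-only and 18.2% of all merged sites. Sequence related to 7SL RNA, the RNA of the signal recognition particle and the source of Alu elements, covered the centre of 116 writer-only sites (8.23%), 62 in sense and 54 in antisense, and of 9.58% of shared and 5.42% of reader-only sites.

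Nuclear tRNA genes, of which 443 were annotated, were overlapped by 14 writer-only sites, each over a different gene. The same measure gave 4 shared sites (0.151%) and 8 reader-only sites (0.0826%), against 0.994% of writer-only sites. METTL1 marked 12 of the 14 and WDR4 marked 9, and 5 were marked by both METTL1 replicates alone. Over all clusters of a library, tRNA genes were overlapped by 24 and 33 in the METTL1 replicates, 13 and 10 in the WDR4 replicates, 15 and 20 in the IGF2BP3 bio2 replicates, and 0 to 2 in the other IGF2BP libraries. The METTL1 libraries were thus the highest, and the ranges of the METTL1 and WDR4 libraries and of the IGF2BP libraries overlapped through bio2.

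The tRNA sites were fragments of 16 to 43 nt. Of the 14, 7 lay inside the gene, 5 ran at least 3 nt past its 3' end, 1 ran 1 nt past it and 1 began at least 3 nt before its 5' end. Bases beyond the ends belong to the precursor and not to the mature tRNA. TRA-CGC3-1, an alanine tRNA gene, was marked in all 4 libraries. Its clusters were 21 and 24 nt in the METTL1 replicates and 20 and 24 nt in the WDR4 replicates, and the site ended 6 nt past the gene. The site of TRD-GTC2-6, an aspartate tRNA gene, ended 15 nt past the gene, with clusters of 41 and 42 nt for METTL1 and 23 nt for WDR4 replicate 1. TRM-CAT1-1, a methionine tRNA gene, had a site that began at gene base 47 and ran 9 nt past the end. TRE-TTC3-1, a glutamate tRNA gene, was covered from base 1 to base 43 of 72. TRL-AAG2-1, TRL-AAG2-2 and TRL-TAG2-1, leucine tRNA genes, were covered by the same 22 nt from base 45 to base 66, so these 3 sites need not be separate contacts, and TRL-AAG4-1 was covered over the same bases. The word AAGGT or GAGGT lay in the variable loop of 5 of the 14 genes, and none of the sites covered it. Mature tRNAs with more than 10 equal places were dropped by the mapper.

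Other small RNAs each held few sites. The MIR744 site, at chr17:12081909-12081927 (plus strand), began at the first base of the mature arm miR-744-5p and was marked by METTL1 replicate 1 (18 nt) and by WDR4 replicates 1 (19 nt) and 2 (18 nt). The mature sequence, from RefSeq on GRCh38, is given with its seed, bases 2 to 8, in capitals.
hsa-miR-744-5p: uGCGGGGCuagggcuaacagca

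Sites also overlapped the hairpins of MIR3684, MIR4633, MIR3615 and MIR1281, each in 2 libraries and each wider than the mature arm it covered. RNU4-1, the U4 spliceosomal RNA, held a site of 38 nt with clusters of 21 and 34 nt in the METTL1 replicates and 24 nt in WDR4 replicate 1. TERC, the RNA template of telomerase, held a site of 54 nt in both METTL1 replicates. NEAT1, the scaffold of paraspeckles, held a site of 31 nt in METTL1 replicate 1 and both WDR4 replicates. RN7SL2, a 7SL RNA gene, held a site of 50 nt whose centre occurs 166 times. SNORA57 held a site of 25 nt in both METTL1 replicates. The nearest IGF2BP clusters lay 8 nt from the RNU4-1 site and 104 nt from the RN7SL2 site. They lay 243978 nt from the TERC site and 73366 nt from the SNORA57 site. No writer-only site lay in 521 genes of 5S rRNA, 6 of vault RNA or 70 replication-dependent histone genes. Reader-only sites were present in 11, 3 and 2 of these genes. Of 991 snoRNA and scaRNA genes 1 held a writer-only site and 82 a reader-only site, where 1.45% and 7.69% of all 62663 annotated genes did. The reader-only set is the larger, so the counts of the sets are not comparable directly. Lists of 6 and 70 genes are small for a share of 1.45%, so no conclusion is drawn from their lack of a writer-only site.

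Sequences of the mitochondrial chromosome were matched by 73 writer-only sites (5.18%), 199 shared sites (7.50%) and 73 reader-only sites (0.754%), all of them copies of mitochondrial DNA in the nuclear chromosomes, since the mitochondrial chromosome itself was left out. Most mitochondrial genes are read from the heavy strand, and the light strand gives MT-ND6, a few tRNAs and otherwise antisense RNA. Of the 73 writer-only matches 56 read in the sense of light-strand transcripts (76.7%), at 49 places more than 20 nt apart. The largest groups lay opposite MT-CO1 (15 sites), MT-ND5 (7) and MT-ND4 (6), and 2 lay in the sense of MT-ND6. By library the light-strand share was 81.3% and 71.4% for METTL1 and 80.0% and 78.2% for WDR4. It was 53.9% to 58.6% in the same libraries at shared sites and 2.44% to 25% in the IGF2BP libraries at reader-only sites, where it rests on 4 sites. PCBD2 held 7 such sites in an intron, the most of any protein-coding gene, with 27 IGF2BP sites in the same gene. RGPD2 held 3 and the pseudogene ENSG00000230021 held 6.

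The rRNA precursor was matched by 43 writer-only sites that were not pyrimidine-rich, against 203 shared and 179 reader-only sites. Of the 43, 21 lay in the 5' external spacer, 5 in an internal spacer, 13 in 28S and 3 in 18S. Among the 203 shared sites 41 lay in the 5' external spacer and 109 in 28S, and among the 179 reader-only sites 5 and 147. The spacers are cut away as the precursor matures. Annotated lncRNAs over rDNA on chromosome 21, ENSG00000280441 with 16 sites and ENSG00000278996 with 5, were among the noncoding genes with the most sites, and 15 and 5 of these matched the precursor. A further 95 pyrimidine-rich sites also matched by their CT repeats and are not counted as rRNA.

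Writer-only sites were scattered over genes. In all, 839 genes held a site on their strand, 759 of them 1 site, 68 of them 2 and 12 of them 3 or more. Protein-coding genes with 3 sites included FNDC3B, MDM2, ERC1 and RGPD2. MDM2, the ubiquitin ligase of the p53 pathway, had its 3 sites in introns, and 22 sites with IGF2BP clusters lay in the same gene. Of these 3 MDM2 sites, 1 had a single-copy centre and 1 matched a snoRNA or scaRNA reference. Of 20 plasma protein genes of the liver, 5 held a writer-only site and all 5 sites were intronic, while 8 held a shared site and 13 a reader-only site. Over all 20033 protein-coding genes, counting every gene at a site's midpoint, 3.69% held a writer-only site, 6.80% a shared site and 20.5% a reader-only site. The sets held 1409, 2652 and 9686 sites in this order. AFP, the fetal albumin homologue, held a pyrimidine-rich intron site of 58 nt at chr4:73447264-73447321 in 3 libraries, with clusters of 58 and 58 nt for METTL1 and 54 nt for WDR4 replicate 2. ALB, APOB, SERPINA1 and C3 held the others. The SERPINA1 centre was single-copy, while the centres of AFP, APOB, C3 and ALB occurred at 2, 4, 7 and 285 places, so their place is ambiguous. Of 86 cytosolic ribosomal protein genes, RPL37A, RPL34 and RPS23 held 4 sites, and 27 genes held a reader-only site. The intron sites of RPL37A and RPL34 had centres at 21757 and 3950 places, so their place is ambiguous. None of the 7 genes of m7G methylation and recognition (METTL1, WDR4, RNMT, RAMAC, BUD23, TRMT112 and QKI) and none of the 5 transcripts tethered in the study (CYRIB, BPNT2, ZDHHC9, HUWE1 and NDRG1) held a writer-only site.

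The 47 sites in all 4 libraries held the same kinds, in another order of frequency. Of them 19 were short, 12 pyrimidine-rich and 16 of the remaining kind, and 24 had a single-copy centre. Short sites were the most frequent kind there, whereas the remaining kind was over all writer-only sites. Of the 47, 22 lay between genes and 15 in introns. Over all 1409 writer-only sites the order was the reverse, with 452 intergenic and 682 intronic. The single-copy site ranked first by cluster width lay in an intron of ADGRG6, an adhesion G protein-coupled receptor, at chr6:142311850-142311907 (plus strand). All 4 libraries held the same 58 nt there, which had no G and 77.6% C and T. In VEGFA, the vascular endothelial growth factor, an exon of a noncoding transcript held clusters of 42 nt in 3 libraries and 41 nt in WDR4 replicate 2 at chr6:43778317-43778358 (plus strand). The TMEM219 intron site, at chr16:29962251-29962292 (plus strand), held clusters of 36 and 38 nt for METTL1 and 42 and 39 nt for WDR4. Among the multi-copy sites, MTND6P22, a nuclear copy of MT-ND6, held clusters of 63 and 65 nt for METTL1 and 80 and 85 nt for WDR4, and DMD, TCF7L2 and ATP2B1 held CT repeats in introns. A width of exactly 58 nt was shared by 174 of the 1409 sites, 90 of them pyrimidine-rich.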

How the data were processed

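PAR-CLIP of 5 proteins in HepG2 was analysed from called clusters. The authors passed reads through the FASTX toolkit (quality filter, clipping, collapsing), dropped short reads, mapped them with Bowtie (at most 3 mismatches, reads with over 10 best places dropped) and called clusters with PARalyzer. hg38 and Bowtie are named in the submitters' processing notes. Versions and PARalyzer settings are not given in the sources used here. The deposited values are of the kind other, cluster intervals: a line gives chromosome, strand, start and end of a cluster in 1 library, with no count or score. Starts were read as counted from 1, since the base before the start, not the first base, was mostly G.

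Clusters were merged with Python 3.11.15 and numpy 2.4.6. Sites were classed by midpoint against GENCODE release 44, with coding sequence taking precedence over a 3' UTR, that over a 5' UTR, and any exon over an intron. The central 20 nt were counted on both strands of hg38 and matched to RNA references with up to 2 mismatches (1 under 20 nt), and 7SL-related sequence was found with blastn 2.17.0 (E-value 1e-05, 50 nt on both sides). Libraries were compared by two-sided exact sign-flip (4 paired differences) and exact permutation tests (4 against 8), with Benjamini-Hochberg adjustment over 7 measures and a threshold of 0.05. A planned measure, the repeat-masked share, was not run, as the reference used holds no repeat mask. The paper describes plates of cells grown separately for every replicate. Neither it nor the labels say whether replicates were prepared on separate days, so p-values may measure technical spread. Members, lists and tests were chosen with earlier results of these data known. Named were sites in all 4 libraries ranked by width, genes with the most sites, and genes of the lists that held a site. Other sites were picked after their values were seen, among them the single-copy pyrimidine-rich and G-rich examples. Alternatives changed the libraries needed, the proteins, the distance to an IGF2BP cluster, the overlap, the copy number, the class rule and the unit, and left out each library. Whether equal replicate numbers pair libraries was examined through 15 correlations of replicate differences, which lay between -0.0119 and 0.0116, so no pairing was used. Simulated data with known answers were recovered in 8 of 8 checks. Some sites are not reported here.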

Additional observations from a re-analysis of the deposited data

How the results depend on the processing

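Depth per site is unknown, chance overlap of clusters was not modelled, and the libraries share sites, which limits what a difference between sets can show. The sets were also defined by the labels that were permuted, so passing the threshold against reader-only sites is a description. Of 169 alternative values of the comparison with shared sites, 161 kept their direction, where the test could not pass the threshold under any alternative. Of 169 with reader-only sites, 153 kept direction and side of the threshold. With the protein as the unit the differences from reader-only sites were 27.1 (intron), -36.6 (3' UTR), 17.97 (intergenic), -16.0 (single-copy) and 7.94 points (G+C) and no longer passed, since the smallest p is then 0.1. With the central 16 nt the single-copy difference from reader-only sites turned to 8.53. The difference in single-copy share from shared sites turned to -2.59 with at least 3 libraries, to -8.64 without sites up to 24 nt and to -4.15 also without pyrimidine-rich sites, both chosen after seeing the data, and ranged from -0.250 to 9.48 when a library was left out. The G+C difference from shared sites turned to 0.767 over single-copy sites and to 1.03 without short and pyrimidine-rich sites, and ranged from -2.24 to 1.39 when a library was left out. The noncoding RNA difference from reader-only sites turned to 0.752 without the bio2 libraries and to 0.541 without short and pyrimidine-rich sites, and ranged from -1.85 to 0.317 when a library was left out. The T difference from reader-only sites passed at 3.75 (at least 3 libraries), 2.77 (both proteins), 3.65 (without short sites), 4.28 (without METTL1 replicate 1) and 3.03 (without METTL1 replicate 2), turned to -0.604 over single-copy sites, and passed in the opposite direction at -2.57 (adjusted p = 0.0330, exact permutation test) without short and pyrimidine-rich sites. It ranged from 0.0129 to 4.28 when a library was left out. The intergenic difference without short sites was 8.47 (shared) and 8.22 (reader-only), and also without pyrimidine-rich sites 6.82 and 6.52. The number of writer-only sites was 265 with at least 3 libraries, 708 with both proteins, 783 over single-copy sites and 646 to 1533 when a library was left out. The cause of these turns was not tested. Other limits of the kinds, chosen after seeing the data, gave a short share of 24.8% (up to 20 nt) to 36.5% (up to 28 nt) and a pyrimidine-rich share of 16.7% (at least 90% C and T) to 33.6% (at least 70%). With a replicate block, the intron difference from reader-only sites was 27.8 points with adjusted p = 0.00622 (exact permutation test within the replicate number), and the block changed no call.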
